A study of Mus musculus with 12 samples.

Results

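The genes described here are p53 targets and cell death genes: 48 of 32419 genes in the expression tables of cortistatin-deficient and wild type mouse brain endothelial cells (BECs). They were listed by symbol, but with earlier results of these data known, so that their shares beside those of all genes are descriptive. They cover p53 (Trp53) and its inhibitor Mdm2, 8 genes of cell cycle arrest, 7 other p53 targets of stress and signalling, the BCL2 family with its BH3-only proteins, pore formers and survival proteins, the caspases with their activators and inhibitors, the death receptors, and the necroptosis genes. Expression is given in RPKM, read counts scaled by gene length and library size. Of the 48 genes, 46 averaged 1 RPKM or more over the 10 libraries. The exceptions were Bmf, a BH3-only protein, at a mean of 0.472 RPKM, and Casp1, an inflammatory caspase, at 0.575 RPKM.

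RNA was sequenced from primary BECs of C57BL/6 mice that carry the cortistatin gene (Cort+/+) or lack it in every cell (Cort-/-), each replicate being a pool from 3 mice. Mice were 8 weeks old, and endothelial cells were enriched in culture with puromycin for 60 h. Cells were kept for 24 h in normoxia and normoglycemia (NX/NG: 21% O2, 5.5 mM glucose) or put through OGD-R, an in vitro model of ischemia and reperfusion. OGD-R was 4 h at 1% O2 without glucose and serum, then 20 h back in oxygen, glucose and serum. The part of the serum change in the responses was not tested. Libraries with values were 3 of Cort+/+ and 2 of Cort-/- in each environment, 10 of 12 listed samples. Replicate 3 of Cort-/- in NX/NG and replicate 2 of Cort-/- in OGD-R were not analysed here. Every sample, controls included, also carries the label of an ischemic stroke model (MCAO), which the methods do not describe for these cultures.

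p53 is a transcription factor that is held at a low level by MDM2, which marks it for degradation, and that accumulates after DNA damage, hypoxia and other stress. It binds DNA as a tetramer, at a pair of decamers, and switches on genes that halt the cell cycle, such as Cdkn1a, and genes that open the mitochondrial route of apoptosis, such as Bbc3 and Bax. In that route BH3-only proteins free BAX and BAK from the BCL2 survival proteins, cytochrome c leaves the mitochondria, and APAF1 and caspase-9 start the caspase cascade, while death receptors such as FAS act through FADD and caspase-8. Where caspase-8 is blocked, RIPK1, RIPK3 and MLKL can carry out necroptosis, a lytic death. Endothelial cells that die by these routes leave gaps in the blood-brain barrier.

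The promoter windows of 4 p53 targets are shown as examples of those that hold the p53 decamer. Windows of 300 bases, from 250 before to 50 after a start site, were taken from RefSeq (GRCm38.p6). They were found for 43 of the 48 genes, in 61 windows. The p53 consensus decamer, whose definition is the same on both strands, occurred in 11 of these windows, of 10 genes, or 18.0%, against 8.36% of all 32851 windows. A pair of decamers with a gap of at most 13 bases occurred in 24 windows (0.0731%), and among the 48 genes only in 1 window of Cdkn1a. In Cdkn1a (chr17:29090729-29091028, plus strand) the decamers begin at -73 and -51 from the start site, with a gap of 12 bases. In Ccng1 (chr11:40755237-40755536, minus strand) a single decamer begins at -185, in Gadd45a (chr6:67037358-67037657, minus strand) at -40, and in Mdm2 (chr10:117710709-117711008, minus strand) at -186. Windows of Bax and Trp53 also hold a single decamer, at -201 and -75, and are not shown. Each is written 5′ to 3′ with the decamers in capitals. A match describes the letters and is not a site of binding.
Cdkn1a: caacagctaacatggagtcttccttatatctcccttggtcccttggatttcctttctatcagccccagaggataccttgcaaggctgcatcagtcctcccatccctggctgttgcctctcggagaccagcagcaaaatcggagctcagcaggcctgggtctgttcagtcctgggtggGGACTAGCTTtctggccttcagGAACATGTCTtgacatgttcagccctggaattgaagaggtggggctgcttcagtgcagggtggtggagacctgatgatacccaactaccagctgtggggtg
Ccng1: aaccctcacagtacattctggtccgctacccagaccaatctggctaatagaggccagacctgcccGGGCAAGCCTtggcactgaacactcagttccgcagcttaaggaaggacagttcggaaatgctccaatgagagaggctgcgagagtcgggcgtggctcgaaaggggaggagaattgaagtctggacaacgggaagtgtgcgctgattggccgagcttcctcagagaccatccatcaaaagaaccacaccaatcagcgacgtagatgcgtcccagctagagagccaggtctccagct
Gadd45a: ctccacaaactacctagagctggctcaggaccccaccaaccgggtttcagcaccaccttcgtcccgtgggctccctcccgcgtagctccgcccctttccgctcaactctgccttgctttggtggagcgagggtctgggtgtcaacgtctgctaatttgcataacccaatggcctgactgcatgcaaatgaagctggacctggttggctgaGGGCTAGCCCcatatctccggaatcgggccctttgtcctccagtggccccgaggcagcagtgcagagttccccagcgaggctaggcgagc
Mdm2: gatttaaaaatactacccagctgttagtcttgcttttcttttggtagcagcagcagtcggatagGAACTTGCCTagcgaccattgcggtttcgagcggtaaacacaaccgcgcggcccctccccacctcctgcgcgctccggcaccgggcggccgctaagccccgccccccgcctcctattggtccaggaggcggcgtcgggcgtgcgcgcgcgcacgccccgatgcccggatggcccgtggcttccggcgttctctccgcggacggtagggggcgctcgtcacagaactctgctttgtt

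In RPKM, the p53 targets of growth arrest led the 48 genes. Ccng1, which encodes cyclin G1, had the highest mean (137 RPKM), followed by Cdkn1a, the cyclin-dependent kinase inhibitor p21 (93.5 RPKM), Phlda3, a target that restrains AKT (84.3 RPKM), and the pore former Bax (72.0 RPKM). Trp53 itself was at 26.4 RPKM and Mdm2 at 34.6 RPKM, above 93.7% and 95.4% of the genes measured in both environments. Among the survival proteins Mcl1 was highest at 58.5 RPKM and Bcl2 lowest at 2.26 RPKM. The initiator caspase-8 (Casp8, 17.7 RPKM) stood above caspase-9 (Casp9, 3.86 RPKM), and Tnfrsf10b (21.6 RPKM), the mouse TRAIL receptor, above Fas (4.02 RPKM). Cdkn1a, Birc2 and Bcl2l2 varied least over the libraries, with a coefficient of variation of 5.64%, 5.02% and 4.04%, and Gdf15, a secreted stress cytokine, varied most (47.1%).

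**Figure D1:**
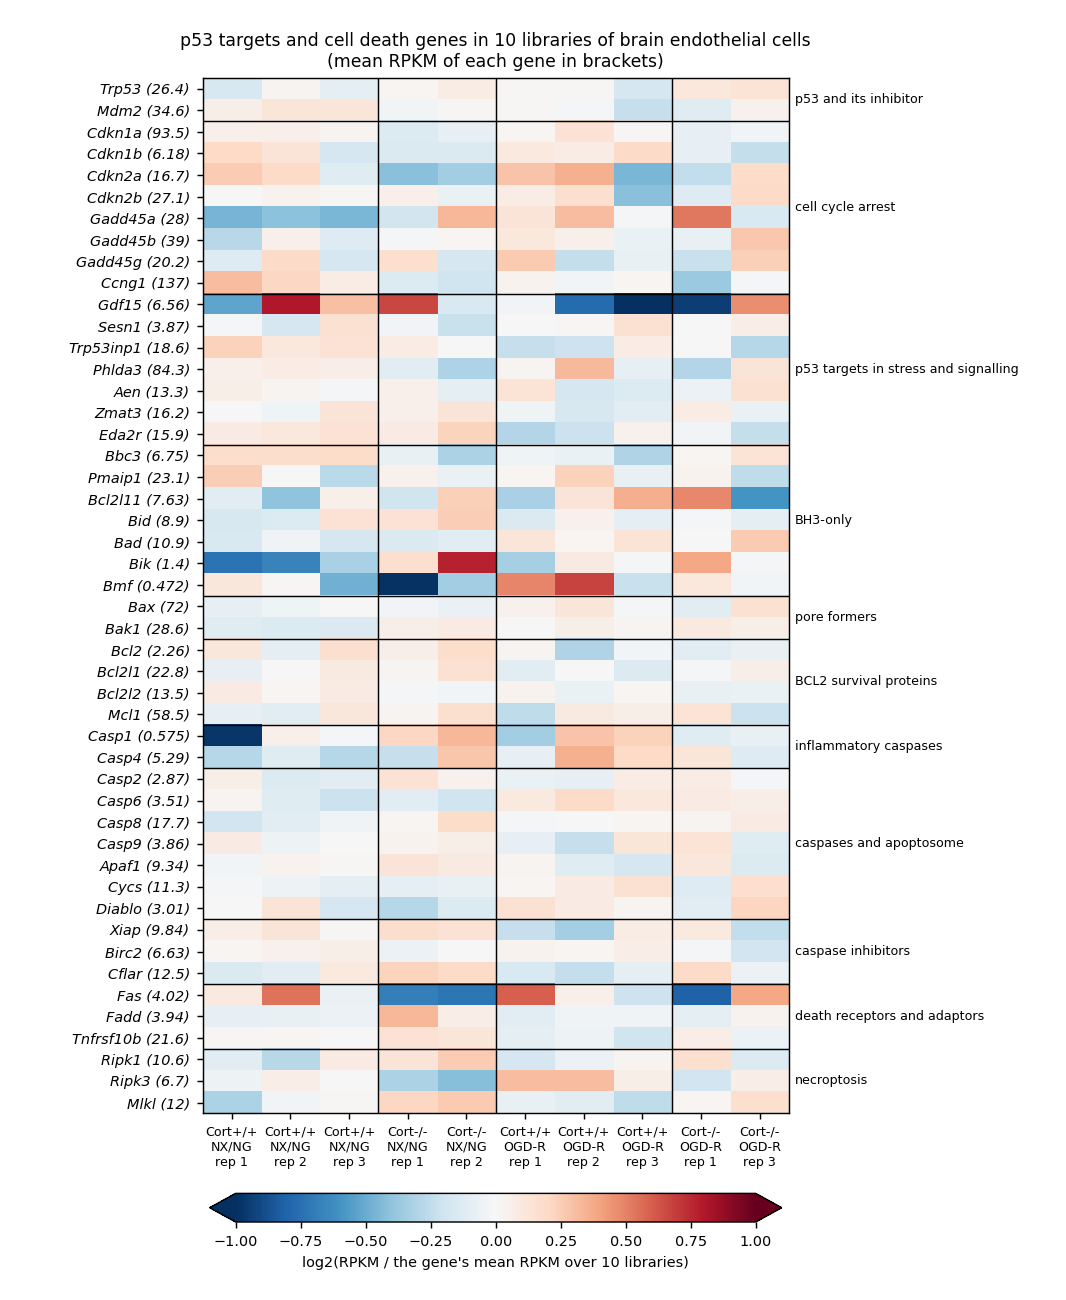
Colour gives the log2 ratio of a library's RPKM to the mean of that gene over 10 libraries (columns, by group and replicate), for 48 genes (rows, by role). Most rows are pale, and strong colours are found in Gdf15, Fas, Bik and Bmf, in which the highest library was 4.64, 2.65, 2.85 and 3.16 times the lowest.

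Each library held between 12386048 and 12390428 reads on genes, recovered from the RPKM values. These totals are nearly equal and lie well under the mean number of paired-end reads that the paper reports. How they arose is not given in the sources used here. Cort was near absent in all groups, with 0 reads in the 4 Cort-/- libraries, 1 to 2 reads in Cort+/+ in NX/NG and 0 to 1 in Cort+/+ in OGD-R, so that it cannot check the genotype at this depth. Replicate 1 of Cort+/+ and replicate 3 of Cort-/- in OGD-R stood apart in 18S ribosomal RNA (Rn18s), at 0.0775% and 0.0951% of reads against 7.64% to 15.8% in the other 8. The 7 endothelial markers were present throughout (summed level 823 to 1212 RPKM), and so were 4 smooth muscle markers (969 to 1818 RPKM). The measured astrocyte, neuron, oligodendrocyte and microglia markers each summed to at most 0.931 RPKM, and 4 epithelial markers to 1.39 to 50.7 RPKM. The highest epithelial sum was that of Cort+/+ replicate 2 in NX/NG. All 4 epithelial markers had a negative log2 difference for Cort-/- in NX/NG and for OGD-R in Cort+/+, 0 with an unadjusted p under 0.05 in limma. The 5 fibroblast markers summed to 96.3 and 64.6 RPKM in Cort-/- in NX/NG against 161 to 229 RPKM in Cort+/+, and the 5 pericyte markers to 7.81 and 10.5 against 18.3 to 21.9 RPKM. In OGD-R these sums were 157 and 201 RPKM in Cort-/- against 165 to 272 in Cort+/+ for fibroblasts and 14.9 and 17.1 against 17.0 to 22.3 for pericytes, and both overlapped. In NX/NG 3 of the 5 pericyte and 2 of the 5 fibroblast markers had an unadjusted p under 0.05 in limma, all lower in Cort-/-, Col1a1 with a log2 difference of -1.35. The 5 pericyte markers all had a negative log2 difference. Of the fibroblast markers 2 had a positive one, 1 of them higher in Cort-/- without overlap. In OGD-R all 5 pericyte and 4 of the 5 fibroblast markers had a negative log2 difference for Cort-/-, and 1 fibroblast marker a positive one. Vtn (pericyte) and Lum (fibroblast) were lower there at an unadjusted p of 0.0234 and 0.0332 in limma. The part of these markers in the differences below was not tested, and in bulk RNA fewer cells of a type and less RNA per cell cannot be told apart.

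**Figure D2:**
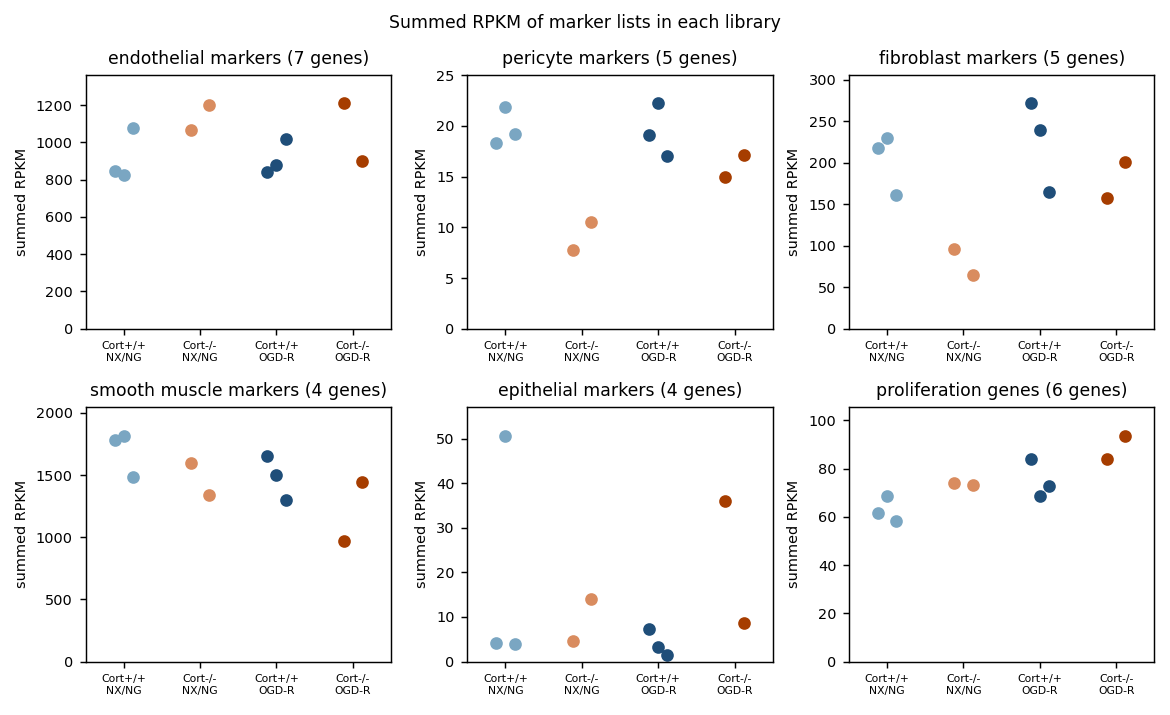
Points are libraries, and the vertical axes give the summed RPKM of marker lists, from 0, in the 4 groups. The fibroblast and pericyte sums of the 2 Cort-/- NX/NG libraries lie below those of the other 8 libraries, while the endothelial sums overlap between groups.

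Whether loss of cortistatin alone moves the p53 and cell death genes was asked by comparing Cort-/- with Cort+/+ in NX/NG. At a false discovery rate (FDR) of at most 0.05 over all genes, limma called 0 of the 48 genes and 0 of 29965 genes tested (0.0%), and limma-voom on the recovered reads called 1 of the 48, Ccng1, against 0.414% of all genes. At an unadjusted p under 0.05, there were 14 of the 48 genes (29.2%), against 8.39% of all genes and 13.4% of the 13789 genes that averaged 1 RPKM or more. Higher in Cort-/- were 7 of them, against 3.56% of all genes, and lower were 7, against 4.82%. The median log2 difference was 0.03 over the 48 genes and -0.01 over all genes. Lower were Fas, Cdkn2a, Ripk3, Bbc3, Ccng1, Phlda3 and Cdkn1a, and higher were Bik, Gadd45a, Mlkl, Cflar, Casp8, Bak1 and Tnfrsf10b. The count was 9 without Cort+/+ replicate 1, and the count over all genes in that fit is not given here. In each of the 14 the genotypes did not overlap, which held for 23 of the 48 genes (47.9%), for 23.2% of all genes and for 32.9% of those at 1 RPKM or more. Levels by library are RPKM scaled over the 10 libraries together, and log2 differences between genotypes are on the log2(RPKM + 0.1) scale of the deposited values.

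**Figure D3:**
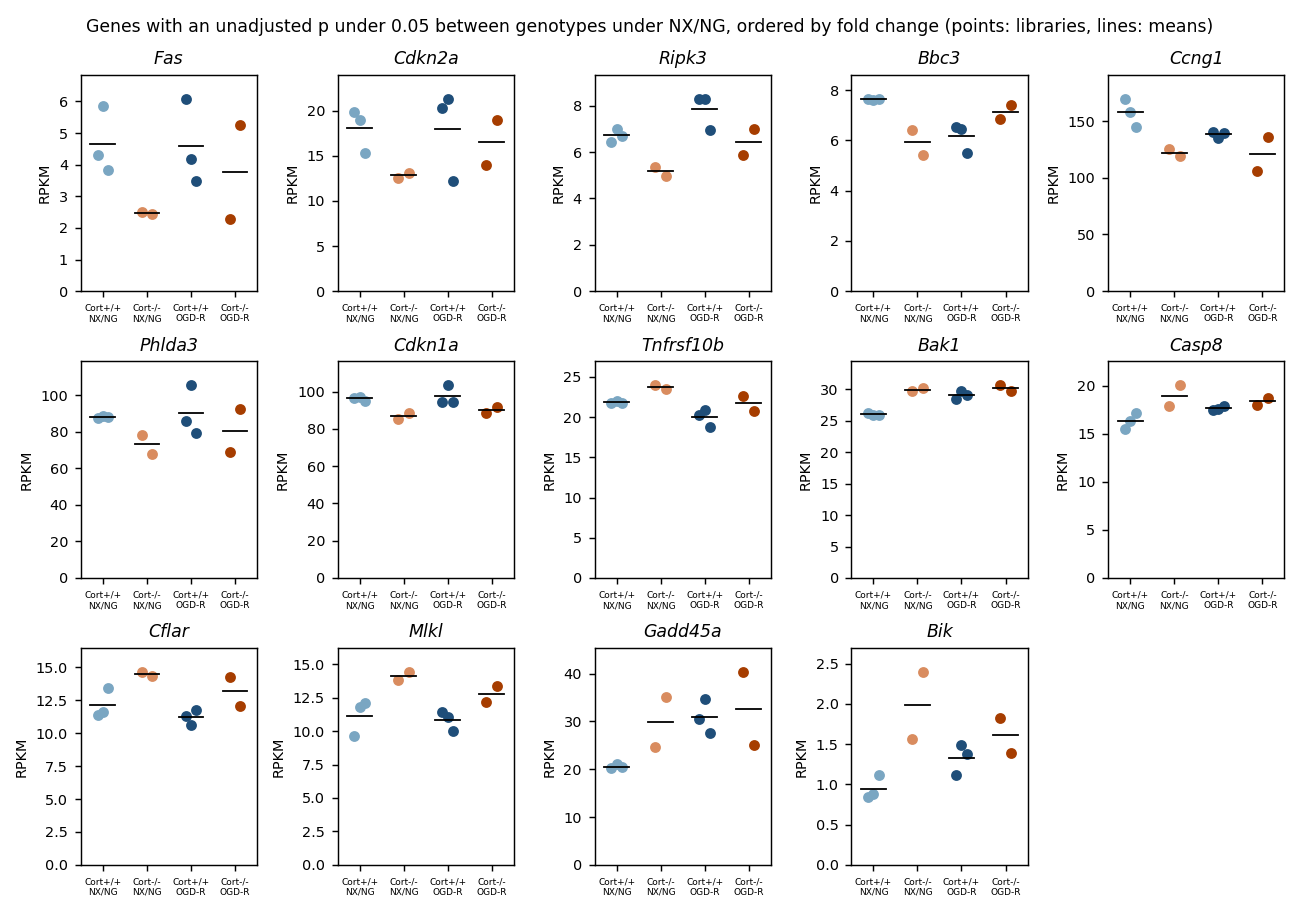
Points are libraries, lines are group means, and the vertical axes give RPKM, from 0, in the 4 groups for the 14 genes with an unadjusted p under 0.05 between genotypes in NX/NG. In NX/NG the Cort-/- points of Ccng1 (125 and 119 RPKM) lie under and those of Bak1 (29.7 and 30.3 RPKM) over all Cort+/+ points, while in OGD-R the points of Fas, Ripk3 and Gadd45a overlap between genotypes.

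Among the genes of cell cycle arrest, Ccng1 was at 170, 158 and 145 RPKM in the Cort+/+ NX/NG libraries and at 125 and 119 RPKM in Cort-/-. Both Cort-/- values lay under the lowest Cort+/+ value, with a log2 difference of -0.37 (SE 0.09, unadjusted p = 0.0072, FDR = 0.358) and, in limma-voom, an FDR of 0.0445. Cdkn1a was at 96.8, 97.1 and 95.2 RPKM in Cort+/+ and at 85.0 and 88.5 RPKM in Cort-/-. The difference was small, -0.16 on the log2 scale (SE 0.05, unadjusted p = 0.0221, FDR = 0.49), but the groups did not overlap. Cdkn2a, whose row joins the products p16 and p19ARF, was at 19.9, 19 and 15.3 RPKM in Cort+/+ against 12.5 and 13.1 RPKM in Cort-/-. All Cort-/- values were lower, with a log2 difference of -0.49 (SE 0.13, unadjusted p = 0.0111, FDR = 0.408). Its neighbour Cdkn2b, which encodes p15, was at 27.0, 27.7 and 27.2 RPKM in Cort+/+ against 28.04 and 25.8 RPKM in Cort-/-, and there the groups overlapped.

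Gadd45a, a stress gene that arrests the cycle and assists DNA repair, stood the other way. It was at 20.2, 21.01 and 20.4 RPKM in Cort+/+ in NX/NG and at 24.6 and 35.2 RPKM in Cort-/-. The Cort-/- libraries lay far from each other, and both lay above the close Cort+/+ values. The log2 difference was 0.51 (SE 0.15, unadjusted p = 0.0211, FDR = 0.484). It was 0.25 without Cort-/- replicate 2 and 0.77 without Cort-/- replicate 1, and in the latter fit, with a lone Cort-/- library assumed to vary like Cort+/+, the FDR was 0.0358. Of the same family, Gadd45b and Gadd45g overlapped between genotypes.

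Trp53 was at 23.6, 27.0 and 24.7 RPKM in Cort+/+ and at 26.7 and 27.7 RPKM in Cort-/-, and the groups overlapped (log2 difference 0.11, 95% interval -0.07 to 0.29). Mdm2, a p53 target as well as its inhibitor, was at 36.1, 37.6 and 37.5 RPKM in Cort+/+ and at 34.0 and 34.8 RPKM in Cort-/-. These groups did not overlap, yet the log2 difference of -0.11 (SE 0.04) missed the threshold at an unadjusted p = 0.0517. Of the 7 p53 targets in stress and signalling, Phlda3 alone passed it, at 87.5, 88.8 and 88.3 RPKM in Cort+/+ and 78.3 and 68.1 RPKM in Cort-/-. Its log2 difference was -0.28 (SE 0.07, unadjusted p = 0.0124, FDR = 0.421), and -0.18 without Cort-/- replicate 2. Gdf15 spread widely within both groups, at 4.56, 11.4 and 8.07 RPKM against 10.4 and 5.91 RPKM, with a 95% interval of the log2 difference of -1.10 to 1.21.

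In the BH3-only family 2 of 7 genes had an unadjusted p under 0.05, in opposite directions. Bbc3, which encodes the p53 target PUMA, was at 7.63, 7.62 and 7.66 RPKM in Cort+/+ and at 6.43 and 5.42 RPKM in Cort-/-. The Cort+/+ values were nearly equal and both Cort-/- values were lower, with a log2 difference of -0.37 (SE 0.09, unadjusted p = 0.00851, FDR = 0.379). Bik, by contrast, was at 0.840, 0.881 and 1.12 RPKM in Cort+/+ and at 1.57 and 2.39 RPKM in Cort-/-. It rests on 16 to 47 reads a library, and its log2 difference of 0.97 (SE 0.25, unadjusted p = 0.0118, FDR = 0.411) was 0.68 without Cort-/- replicate 2 and 0.59 with a pseudocount of 1.

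Of the pore formers, Bax overlapped between genotypes, at 68.2, 70.0 and 72.0 RPKM in Cort+/+ and 70.7 and 68.8 RPKM in Cort-/-, with a log2 difference of -0.01 (95% interval -0.14 to 0.11). Bak1, which encodes BAK, was at 26.2, 25.9 and 25.9 RPKM in Cort+/+ and at 29.7 and 30.3 RPKM in Cort-/-. The values within each genotype were close and the Cort-/- level was 1.15 times that of Cort+/+ (log2 difference 0.20, SE 0.04, unadjusted p = 0.00487, FDR = 0.317). Of the 14 genes, it was the one whose unadjusted p stayed under 0.05 in every alternative tried. Exons of Bak1 overlap those of Ggnbp1 on the other strand, and the strand setting of the counting is not given in the sources used here. Of the 4 BCL2 survival genes 0 had an unadjusted p under 0.05, and Bcl2 was at 2.45, 2.13 and 2.53 RPKM in Cort+/+ against 2.36 and 2.56 RPKM in Cort-/- (95% interval of the log2 difference -0.27 to 0.37).

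In the death receptor arm, Fas was at 4.29, 5.85 and 3.84 RPKM in Cort+/+ and at 2.50 and 2.44 RPKM in Cort-/-. Both Cort-/- values lay well under the Cort+/+ values, which themselves spread, and the Cort-/- level was 0.546 times that of Cort+/+ (log2 difference -0.87, SE 0.19, unadjusted p = 0.00634, FDR = 0.351). Without Cort-/- replicate 1 the unadjusted p was 0.0622, and without Cort-/- replicate 2 it was 0.0705. Tnfrsf10b was at 21.8, 21.9 and 21.7 RPKM in Cort+/+ against 23.9 and 23.5 RPKM in Cort-/-, a small difference between groups that did not overlap (log2 difference 0.11, SE 0.04, unadjusted p = 0.0417, FDR = 0.571).

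Downstream of both receptors, Casp8, the initiator caspase, was at 15.5, 16.4 and 17.2 RPKM in Cort+/+ against 17.9 and 20.02 RPKM in Cort-/-. All Cort-/- values were higher, and the log2 difference of 0.21 (SE 0.08, unadjusted p = 0.0427, FDR = 0.572) was 0.13 without Cort-/- replicate 2. Cflar, which encodes the caspase-8 inhibitor c-FLIP, was at 11.4, 11.6 and 13.4 RPKM in Cort+/+ against 14.6 and 14.3 RPKM in Cort-/-. It lay higher in Cort-/- with no overlap (log2 difference 0.25, SE 0.09, unadjusted p = 0.0331, FDR = 0.54). The adaptor Fadd and the caspase inhibitors Xiap and Birc2 did not pass an unadjusted p of 0.05, although the genotypes did not overlap in any of the 3.

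The necroptosis genes were split. Ripk3 was at 6.45, 6.998 and 6.71 RPKM in Cort+/+ and at 5.38 and 4.98 RPKM in Cort-/-. All Cort-/- values were lower, with a log2 difference of -0.38 (SE 0.07, unadjusted p = 0.00372, FDR = 0.293), the lowest p of the 48 genes in this comparison. Mlkl, which encodes the pore-forming effector that RIPK3 phosphorylates, was at 9.61, 11.8 and 12.1 RPKM in Cort+/+ and at 13.8 and 14.4 RPKM in Cort-/-. All Cort-/- values were higher, with a log2 difference of 0.34 (SE 0.11, unadjusted p = 0.0307, FDR = 0.534). Ripk1, the upstream kinase, gave a log2 difference of 0.28 that missed the threshold (unadjusted p = 0.0607).

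**Figure D4:**
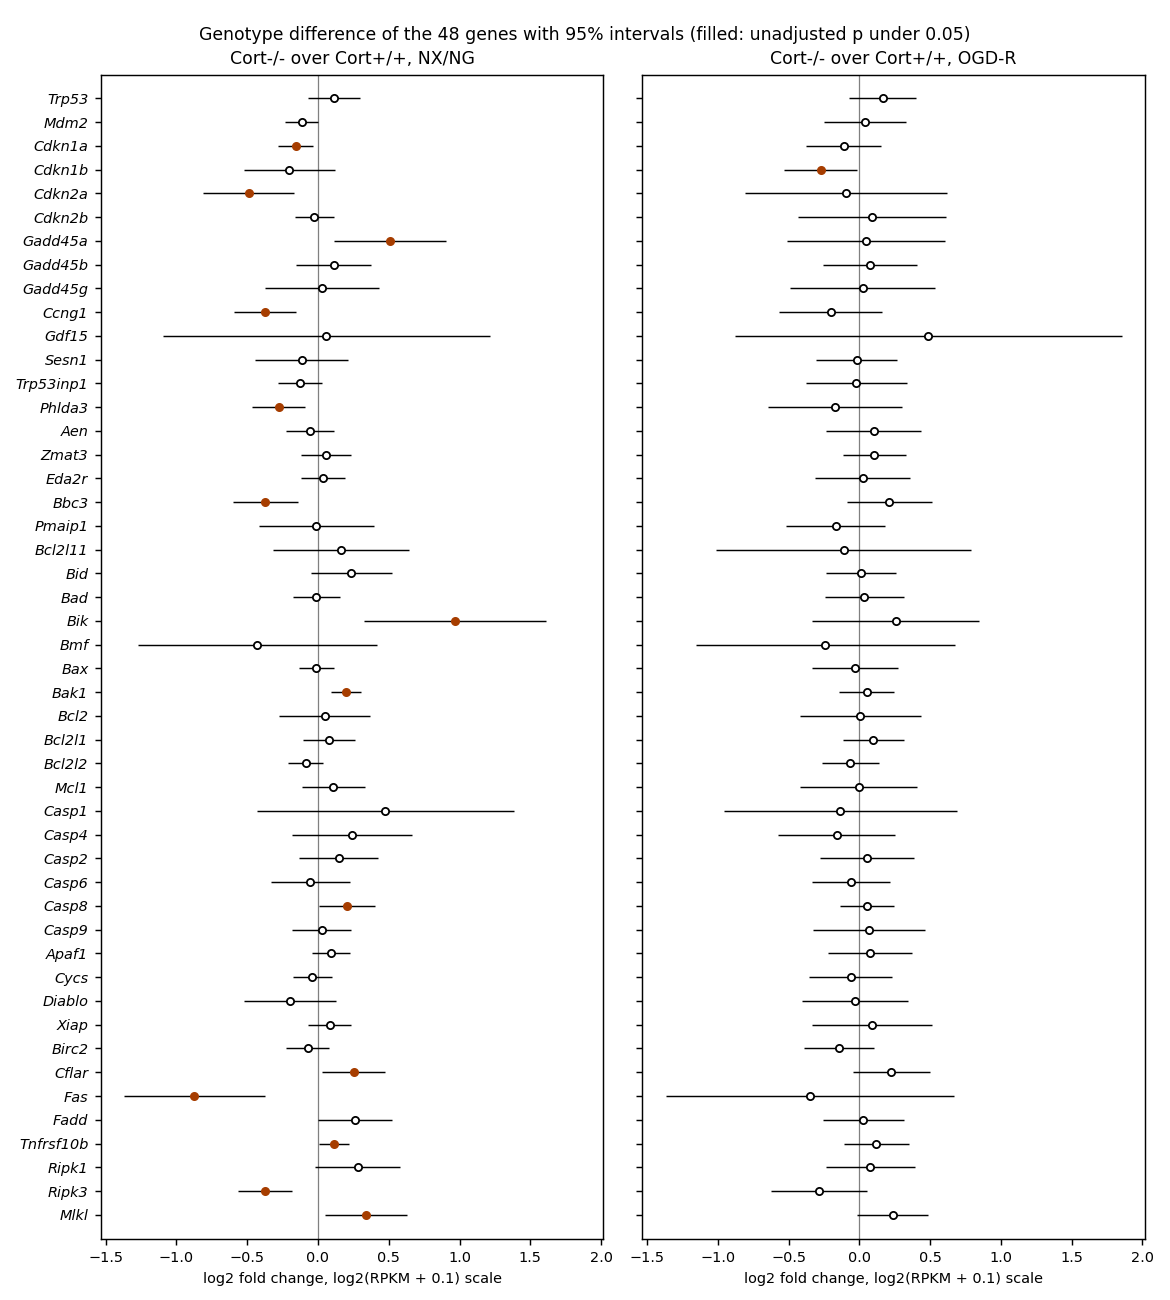
Points give the log2 difference of Cort-/- over Cort+/+ and lines its 95% interval for 48 genes, by role, in NX/NG (left) and OGD-R (right), and filled points have an unadjusted p under 0.05. There are 14 filled points on the left and 1, Cdkn1b, on the right.

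The same comparison in OGD-R asked whether the genotypes differ after the insult. limma called 0 of the 48 genes and 0 of 29775 genes tested (0.0%) at an FDR of at most 0.05, and limma-voom called 0 of the 48, against 0.0168% of all genes. At an unadjusted p under 0.05 there was 1 of the 48 genes, against 3.42% of all genes and 3.75% of those at 1 RPKM or more. The genotypes did not overlap for 9 of the 48 (18.8%), against 14.3% of all genes and 16.0% of those at 1 RPKM or more, and the median log2 difference was 0.02, and -0.01 over all genes. The single gene was Cdkn1b, which encodes the cell cycle inhibitor p27, at 6.61, 6.497 and 7.04 RPKM in Cort+/+ and at 5.84 and 5.24 RPKM in Cort-/-. Both Cort-/- values were lower, with a log2 difference of -0.27 (SE 0.10, unadjusted p = 0.0409, FDR = 0.978), and it was -0.21 (unadjusted p = 0.173) without the 2 libraries low in ribosomal RNA.

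The Cort-/- OGD-R libraries lay apart from each other on several genes. Fas was at 2.30 RPKM in replicate 1 and at 5.26 RPKM in replicate 3, Ccng1 at 106 and 136 RPKM, Gadd45a at 40.3 and 25.1 RPKM, and Bcl2l11, which encodes the BH3-only protein BIM, at 10.6 and 5.05 RPKM. In OGD-R the Cort+/+ libraries were at 6.09, 4.17 and 3.48 RPKM for Fas, at 141, 135 and 139 RPKM for Ccng1 and at 30.5, 34.7 and 27.6 RPKM for Gadd45a, so that the genotypes overlapped in all of these. Replicate 3 of Cort-/- is the library low in ribosomal RNA. The epithelial markers summed to 36.0 and 8.58 RPKM in these Cort-/- libraries against 1.39 to 7.26 RPKM in Cort+/+ in OGD-R, and 4 of 4 had a positive log2 difference, Krt18 with 2.10 (unadjusted p = 0.0346). The part of either in these values was not tested. The median absolute log2 difference between the Cort-/- OGD-R replicates was 0.24 over the 48 genes, against 0.07 to 0.16 between replicates of the other groups, and over the genes at 1 RPKM or more it was 0.21 against 0.12 to 0.19. The 95% interval for Fas was -1.36 to 0.67 and that for Gadd45a -0.51 to 0.60 on the log2 scale, wide enough to hold a difference of the size seen in NX/NG.

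In other genes the genotypes did not overlap in OGD-R. Cdkn1a was at 94.6, 103 and 94.5 RPKM in Cort+/+ against 88.4 and 92.0 RPKM in Cort-/-, lower in Cort-/- as in NX/NG, with a log2 difference of -0.11 and a 95% interval of -0.37 to 0.15. Mlkl was at 11.4, 11.1 and 10.02 RPKM against 12.2 and 13.4 RPKM (0.24, -0.02 to 0.49) and Cflar at 11.3, 10.6 and 11.7 RPKM against 14.3 and 12.1 RPKM (0.23, -0.05 to 0.50), both with all Cort-/- values higher. Trp53 was at 26.7, 26.7 and 23.5 RPKM in Cort+/+ and at 28.4 and 29.1 RPKM in Cort-/-, with no overlap, and the log2 difference of 0.17 had a 95% interval of -0.07 to 0.40. Bbc3 was at 6.55, 6.45 and 5.49 RPKM in Cort+/+ and at 6.85 and 7.43 RPKM in Cort-/-, and here, in contrast with NX/NG, both Cort-/- values were the higher ones (0.21, -0.09 to 0.51). All of these intervals include 0.

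How wild type cells respond to the insult was asked by setting Cort+/+ in OGD-R against Cort+/+ in NX/NG. limma called 0 of the 48 genes at an FDR of at most 0.05, against 9 of 27075 genes (0.0332%), and limma-voom called 0 of the 48, against 0.00369% of all genes. At an unadjusted p under 0.05 there were 7 of the 48 genes (14.6%), against 5.48% of all genes and 6.86% of those at 1 RPKM or more. Higher after OGD-R were 4, against 3.01% of all genes, and lower were 3, against 2.48%. The environments did not overlap for 14 genes (29.2%), against 10.2% of all genes and 12.9% of those at 1 RPKM or more, and the median log2 difference was 0.01, and -0.01 over all genes. Replicate 1 of Cort+/+ in OGD-R does not appear in the study's heat map of this environment and was kept here because the labels map it. All 4 smooth muscle markers had a negative log2 difference (median -0.51), Cnn1 (-0.80) and Myh11 (-1.05) with an unadjusted p under 0.05, and summed to 1298 to 1651 RPKM after OGD-R against 1487 to 1818 RPKM before. Of the fibroblast markers Lum was higher (0.60, unadjusted p = 0.0328), and of 6 proliferation genes 3 were. The part of these lists in the values below was not tested.

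Trp53, Mdm2, Cdkn1a, Gdf15, Bax and Bcl2 were not among the 7. Cdkn1a was at 94.6, 103 and 94.5 RPKM after OGD-R against 96.8, 97.1 and 95.2 RPKM in NX/NG, with overlapping groups (log2 difference 0.02, 95% interval -0.14 to 0.17). Bax was at 74.4, 78.4 and 71.5 RPKM against 68.2, 70.0 and 72.0 RPKM, also with overlap (0.09, -0.06 to 0.24). Trp53 gave a log2 difference of 0.03 (-0.16 to 0.22). Mdm2 was at 34.8, 34.2 and 29.4 RPKM after OGD-R, under all NX/NG values, with a log2 difference of -0.18 (-0.37 to 0.01). Gdf15 was at 6.44, 3.84 and 2.47 RPKM against 4.56, 11.4 and 8.07 RPKM and overlapped (-0.91, -1.96 to 0.14), and so did Bcl2, at 2.31, 1.84 and 2.22 RPKM against 2.45, 2.13 and 2.53 RPKM.

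Gadd45a gave the lowest p of the 48 genes. It was at 30.5, 34.7 and 27.6 RPKM after OGD-R and at 20.2, 21.01 and 20.4 RPKM in NX/NG, and every OGD-R value was above every NX/NG value. The log2 difference was 0.58 (SE 0.09, unadjusted p = 0.00049, FDR = 0.302), and 0.59 without Cort+/+ OGD-R replicate 1. Its unadjusted p stayed under 0.05 in every alternative tried, and its FDR stayed above 0.05. Casp4, which encodes the inflammatory caspase-11, was at 4.99, 6.77 and 6.07 RPKM after OGD-R against 4.35, 4.87 and 4.34 RPKM, with no overlap (log2 difference 0.38, SE 0.13, unadjusted p = 0.0229, FDR = 0.881). Casp1, the other inflammatory caspase, rests on 11 to 28 reads a library, and its 95% interval was -0.50 to 1.10.

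Bad and Bak1, which both promote mitochondrial apoptosis, lay higher as well. Bad was at 11.9, 11.1 and 12.02 RPKM after OGD-R against 9.83, 10.7 and 9.74 RPKM (log2 difference 0.21, SE 0.07, unadjusted p = 0.0193, FDR = 0.881), and Bak1 at 28.5, 29.7 and 29.1 RPKM against 26.2, 25.9 and 25.9 RPKM (0.16, SE 0.05, unadjusted p = 0.0154, FDR = 0.881). Neither overlapped between environments. Bbc3 went the other way, at 6.55, 6.45 and 5.49 RPKM after OGD-R against 7.63, 7.62 and 7.66 RPKM before. All OGD-R values were lower, with a log2 difference of -0.31 (SE 0.09, unadjusted p = 0.0106, FDR = 0.881), and -0.36 without Cort+/+ OGD-R replicate 1.

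The other genes that lay lower after OGD-R were Trp53inp1, a p53 target that feeds back on p53, and Eda2r, a receptor of the TNF family induced by p53. Trp53inp1 was at 15.9, 16.2 and 19.6 RPKM after OGD-R against 21.9, 19.997 and 20.5 RPKM (log2 difference -0.28, SE 0.09, unadjusted p = 0.0242, FDR = 0.881). Eda2r was at 12.98, 13.7 and 16.4 RPKM against 16.9, 17.1 and 17.6 RPKM (-0.27, SE 0.09, unadjusted p = 0.0277, FDR = 0.881). In both the groups did not overlap, but Cort+/+ OGD-R replicate 3 lay close to the NX/NG range. Without replicate 1, which is low in ribosomal RNA, the differences were -0.22 (unadjusted p = 0.0715) and -0.20 (unadjusted p = 0.0757), and 11 of the 48 genes then had an unadjusted p under 0.05. Over all genes the count ran from 1114 to 1821 over the fits with a library left out, against 1485 in the main fit. The count over all genes without replicate 1 alone is not given here, so that the 11 has no share beside it.

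In Cort-/- cells the same step from NX/NG to OGD-R gave 0 of the 48 genes at an FDR of at most 0.05 by limma or limma-voom, and 0 of 26523 genes (0.0%) by either. At an unadjusted p under 0.05 limma gave 0 of the 48, against 4.08% of all genes and 3.76% of those at 1 RPKM or more. At the same threshold limma-voom gave 1 of the 48, and its share of all genes is not given here. With 2 libraries a group the values of 19 of the 48 genes did not overlap (39.6%), against 30.3% of all genes and 34.3% of those at 1 RPKM or more, and the median log2 difference was -0.03, and -0.00 over all genes. A fit without a Cort-/- library leaves 1 in its group, so that its count of genes is not set beside these shares. Beside these values, the fibroblast sum was 96.3 and 64.6 RPKM before and 157 and 201 RPKM after OGD-R, and 2 of 5 fibroblast markers and 2 of 5 pericyte markers were higher after OGD-R at an unadjusted p under 0.05. A negative log2 difference was found in 2 of the fibroblast and 3 of the pericyte markers, 1 of each without overlap. All 4 smooth muscle markers had a negative log2 difference, Myh11 with an unadjusted p under 0.05, and the part of these lists was not tested.

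Gadd45a was at 40.3 and 25.1 RPKM after OGD-R and at 24.6 and 35.2 RPKM in NX/NG in Cort-/-, so that the libraries overlapped (log2 difference 0.11, 95% interval -0.73 to 0.96). Cdkn1a, at 88.4 and 92.0 RPKM against 85.0 and 88.5 RPKM, overlapped too (0.06, -0.21 to 0.32). Bbc3 was at 6.85 and 7.43 RPKM after OGD-R against 6.43 and 5.42 RPKM, with both values higher after OGD-R (0.27, -0.09 to 0.63). Ripk3, at 5.87 and 7.01 RPKM against 5.38 and 4.98 RPKM, was also higher in both libraries (0.30, -0.06 to 0.67), and so was Cdkn2a, at 14.0 and 18.9 RPKM against 12.5 and 13.1 RPKM (0.35, -0.12 to 0.81). These intervals all include 0.

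**Figure D5:**
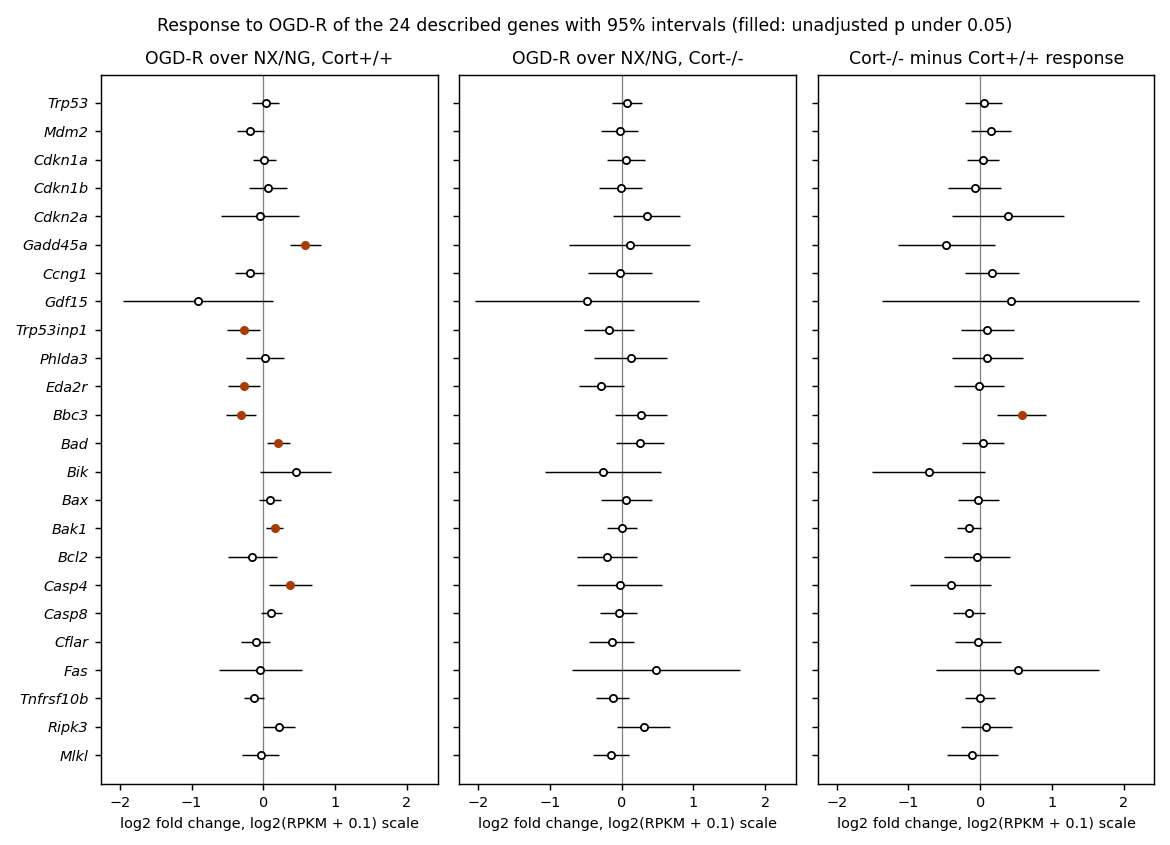
Points give the log2 difference of OGD-R over NX/NG in Cort+/+ (left) and Cort-/- (middle) and the difference between these responses (right), with 95% intervals as lines, for 24 genes, and filled points have an unadjusted p under 0.05. There are 7 filled points in Cort+/+, 0 in Cort-/- and 1, Bbc3, on the right.

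Whether the genotypes respond differently was tested as a genotype-by-environment interaction across the 10 libraries. limma called 0 of the 48 genes at an FDR of at most 0.05, against 3 of 27321 genes (0.011%), and limma-voom called 0 of the 48 and 0.0% of all genes. At an unadjusted p under 0.05 there was 1 of the 48 genes, against 2.85% of all genes and 1.7% of those at 1 RPKM or more. This was Bbc3, at 7.63, 7.62 and 7.66 RPKM before and 6.55, 6.45 and 5.49 RPKM after OGD-R in Cort+/+, and at 6.43 and 5.42 RPKM before and 6.85 and 7.43 RPKM after in Cort-/-. Every Cort+/+ value was lower after OGD-R and every Cort-/- value higher, with a log2 difference of 0.58 between the responses (SE 0.15, unadjusted p = 0.00404, FDR = 1.00). Without the 2 libraries low in ribosomal RNA it was 0.57 (unadjusted p = 0.0168). For Gadd45a the difference between responses was -0.47 with a 95% interval of -1.15 to 0.21, so that its response in Cort+/+ was not shown to differ from that in Cort-/-. For Cdkn1a it was 0.04 (-0.19 to 0.27). In the same test 2 of 5 pericyte markers, Cspg4 (1.72) and Pdgfrb (0.76), and 3 of 5 fibroblast markers, Col1a1 (0.91), Col1a2 (1.44) and Lum (-0.99), had an unadjusted p under 0.05, and their part in the value of Bbc3 was not tested.

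The comparisons share libraries, and in several genes the Cort+/+ NX/NG libraries stood apart from all the others. In Gadd45a these libraries (20.2 to 21.01 RPKM) lay below the other 7, whose lowest value was 24.6 RPKM. In Bak1 they (25.9 to 26.2 RPKM) also lay below the other 7, of which the lowest was 28.5 RPKM. In Bbc3 they (7.62 to 7.66 RPKM) lay above the other 7, of which the highest was 7.43 RPKM. In Ccng1 (145 to 170 RPKM), Mdm2 (36.1 to 37.6 RPKM) and Trp53inp1 (19.997 to 21.9 RPKM) they likewise lay above the other 7. The highest values of those were 141, 35.6 and 19.6 RPKM. In Casp8 (15.5 to 17.2 RPKM) they lay below the other 7, of which the lowest was 17.5 RPKM. The differences of these genes between genotypes in NX/NG and between environments in Cort+/+ rest on the same 3 libraries and are not separate observations.

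Of 22 other p53 targets, 2 were higher and 3 lower in Cort-/- in NX/NG at an unadjusted p under 0.05, and 0 passed the FDR. Both directions together made 22.7% of the list, against 8.39% of all genes and 13.4% of those at 1 RPKM or more. Perp, a membrane protein of desmosomes and a p53 effector, was at 37.0, 36.2 and 28.9 RPKM in Cort+/+ and at 20.8 and 18.1 RPKM in Cort-/-. The groups did not overlap, and the log2 difference was -0.81 (SE 0.13, unadjusted p = 0.00182, FDR = 0.241). Pidd1, the scaffold of the caspase-2 platform, gave -0.38 (unadjusted p = 0.0107), while Ckap2, a spindle protein, gave 0.24 (unadjusted p = 0.0224). In OGD-R 1 of the 22 (4.55%) was higher in Cort-/-, against 3.75% of genes at 1 RPKM or more in either direction. After OGD-R in Cort+/+, 3 of the 22 (13.6%) were lower, the lowest p being that of Btg2, an antiproliferative gene (-0.19, unadjusted p = 0.00909). In Cort-/- 1 was lower (4.55%). The shares of genes at 1 RPKM or more, in either direction, were 6.86% in Cort+/+ and 3.76% in Cort-/-. Of 10 p53 regulators, 0 had an unadjusted p under 0.05 in any of the 5 comparisons, over the 9 or 10 that were measured.

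Of 18 other apoptosis genes, 17 were measured, and 4 in NX/NG and 2 in OGD-R had an unadjusted p under 0.05 between genotypes. These were 23.5% and 11.8% of those measured, against 13.4% and 3.75% of genes at 1 RPKM or more. Dffa, the inhibitor and chaperone of the caspase-activated DNase, was at 5.12, 6.22 and 5.68 RPKM in Cort+/+ and at 8.21 and 9.41 RPKM in Cort-/- in NX/NG. In OGD-R it was at 5.55, 5.97 and 5.21 RPKM in Cort+/+ against 8.94 and 7.48 RPKM in Cort-/-. All Cort-/- libraries lay above all Cort+/+ libraries in both environments, with log2 differences of 0.62 (SE 0.11, unadjusted p = 0.00258, FDR = 0.263) and 0.55 (SE 0.12, unadjusted p = 0.00564, FDR = 0.705). Dffa lies 4.39 kb from the deleted gene Cort on chromosome 4 of GRCm38, and the part of this position in the difference was not tested. Casp9, which lies 7.31 Mb from Cort on that chromosome, showed log2 differences of 0.03 and 0.07, with an unadjusted p = 0.752 and 0.684. Cyld, a deubiquitinase that acts on RIPK1, was also higher in Cort-/- in both environments, with log2 differences of 0.29 (unadjusted p = 0.00833) and 0.29 (unadjusted p = 0.0242). Endog, a mitochondrial nuclease released in apoptosis, was lower in Cort-/- in NX/NG (-0.37, unadjusted p = 0.0394) and higher in Cort-/- after OGD-R than before (0.53, unadjusted p = 0.0283).

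After OGD-R in Cort+/+, 3 of these apoptosis genes lay higher with an unadjusted p under 0.05, led by Birc3, an inhibitor of apoptosis, at 5.74, 4.84 and 5.60 RPKM against 4.12, 4.17 and 4.26 RPKM. Its groups did not overlap (log2 difference 0.35, SE 0.09, unadjusted p = 0.00755, FDR = 0.861). The 3 genes were 17.6% of those measured, against 6.86% of genes at 1 RPKM or more in either direction. Of 7 pyroptosis genes, Gsdmd, the gasdermin pore of that death route, was higher in Cort-/- in NX/NG (0.27, unadjusted p = 0.0278), and Il18, a cytokine that the route releases, was lower in Cort+/+ after OGD-R (-0.42, unadjusted p = 0.0378). Of 6 proliferation genes, 3 were higher in Cort-/- in NX/NG at an unadjusted p under 0.05, namely Mki67 (0.27), Top2a (0.26) and Cdk1 (0.26). The 3 were 50% of this short list, against 13.4% of genes at 1 RPKM or more in either direction. The list summed to 73.9 and 73.4 RPKM in Cort-/- against 58.3 to 68.7 RPKM in Cort+/+. After OGD-R the sums were 84.2 and 93.7 RPKM in Cort-/- and 68.5 to 84.0 RPKM in Cort+/+. All 6 genes had a positive log2 difference for OGD-R in each genotype, 3 of them with an unadjusted p under 0.05 in Cort+/+ (Aurkb, Cdk1 and Top2a) and 3 in Cort-/- (Aurkb, Plk1 and Top2a), and Ccnb1 was higher in Cort-/- than in Cort+/+ after OGD-R. The part of this list in the levels of Cdkn1a, Ccng1 and the other genes of cell cycle arrest was not tested.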

How the data were processed

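RNA-seq of BECs was deposited as 2 tables, 1 per environment. The RPKM values, as deposited by the authors, were scaled within each table, and the submitters' processing notes name edgeR. Aligner, genome build, annotation and strand setting are not given in the sources used here, and labels and methods differ on library kit and read length. Columns of the authors' own comparisons (fold changes, p-values) were not used. Multiplied by length, 99.996% of values or more came within 0.05 of a whole number of reads, and libraries held 12386048 to 12390428 reads.

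Samples were grouped by the labels. With 2 or 3 pools a group, p-values measure the spread between these libraries. Genotypes were compared on log2(RPKM + 0.1) of the deposited values with limma 3.58.1 under R 4.3.3 (eBayes with a trend), only the groups compared entering the fit. Environments and the interaction used recovered reads of 27321 genes that both tables list, scaled over 10 libraries by a trimmed mean of M values. The FDR is the Benjamini-Hochberg adjusted p over all genes, and a call needed at most 0.05. Unadjusted p-values are descriptive. The fit was tested on simulated data.

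The 48 genes and the other lists were chosen with earlier results of these data known. Described by library were Trp53, Mdm2, Cdkn1a, Gdf15, Bax and Bcl2 and those of the 48 at a mean of 1 RPKM or more with an unadjusted p under 0.05 in any of 5 comparisons, 24 genes in all. Of each other list at most 4 genes with such a p were named. Cdkn2b, Bcl2l11, Ripk1, Casp9 and Casp1 were named after their values were seen. Alternatives were a pseudocount of 1, a floor of 1 RPKM in 2 libraries, median-of-ratios scaling, limma-voom, all groups in one fit, a term for low ribosomal RNA, a replicate block, and each library left out. Leaving out both libraries low in ribosomal RNA was added after seeing the data. Exons of Bax, Cdkn1a, Gadd45a, Bak1, Bad, Bid, Bcl2, Bcl2l2, Casp9, Diablo, Ripk1 and Fadd overlap those of another annotated gene.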

Additional observations from a re-analysis of the deposited data

Results flagged for a closer look

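Of the 48 genes, Bbc3 was the one with an unadjusted p under 0.05 in the test of the difference between the genotypes' responses to OGD-R by limma. That p was 0.00404 and the FDR of limma was 1.00. This 1 of 48 genes stands beside 2.85% of all genes and 1.7% of those at 1 RPKM or more. The log2 difference between the responses was 0.58, with all Cort+/+ libraries lower and all Cort-/- libraries higher after OGD-R. Over the alternatives it ran from 0.46 without Cort-/- NX/NG replicate 2 to 0.70 without Cort-/- NX/NG replicate 1.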

How the results depend on the processing

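The 23 differences with an unadjusted p under 0.05 kept their direction in all 282 values under alternatives, 215 of them with the p still under 0.05 and 67 without. Past it in every alternative were Bak1 between genotypes in NX/NG, Bbc3 and Gadd45a for OGD-R in Cort+/+, and the interaction of Bbc3. Of the 48 genes, the count at an unadjusted p under 0.05 was 9 with the replicate block in NX/NG (8 to 15 with a library left out, 8 without Cort-/- replicate 2 and 9 without Cort+/+ replicate 1). Between genotypes in OGD-R it was 0 with limma-voom or the replicate block and 2 with all groups in one fit (0 to 2 with a library left out). For OGD-R in Cort+/+ it was 11 with the term for low ribosomal RNA and without both libraries low in it (5 to 11 with a library left out). In Cort-/- it was 1 with limma-voom and 4 with all groups in one fit, and for the interaction 2 with a pseudocount of 1. For both, no count is given for fits with a library left out. These counts at an unadjusted p stand without the share of all genes in the same fit, so that they cannot be read against it. At the FDR, 1 of the 48 was called in NX/NG by limma-voom (0 to 1 with a library left out) and 0 in all other comparisons and alternatives.

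Of all genes, those called in NX/NG were 20 with a pseudocount of 1, 124 with limma-voom and 4 with all groups in one fit (0 to 683 with a library left out). In OGD-R they were 5 with limma-voom and 7 with all groups (0 to 710). For OGD-R in Cort+/+ they were 5 with a pseudocount of 1, 1 with limma-voom, and 0 with the floor, all groups, the ribosomal RNA term, the block or both libraries left out (0 to 0), and for the interaction 0 with each of these and with a pseudocount of 1 or limma-voom, all groups being its main fit (0 to 8). In Cort-/- they were 0 to 0. The causes were not tested. A left-out Cort-/- library leaves 1 in its group, assumed to vary like the other groups. Replicate numbers were not taken to pair the samples. Same-numbered Cort+/+ libraries of NX/NG and OGD-R had deviations correlated at -0.0589, -0.0739 and 0.185, too few values to exclude a pairing. The replicate block was fitted in both comparisons of genotypes, for OGD-R in Cort+/+ and for the interaction, and is given here only. For OGD-R in Cort-/- it could not be fitted, since the libraries share 1 number. With 2 or 3 libraries a group, differences under the spread between replicates cannot be seen.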
